A study of Homo sapiens with 2 samples.

Results

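The S100 proteins and annexins described here are 10 genes, S100A4, S100A6, S100A8, S100A9, S100A10, S100A11, ANXA1, ANXA2, ANXA5 and ANXA6, taken by gene name from a table of 50868 genes. RNA was sequenced from MOLM-13, a human acute myeloid leukemia (AML) cell line that carries a KMT2A::MLLT3 fusion. There was 1 library from cells with the empty vector (Vector, the overexpression control) and 1 library from cells labelled as overexpressing UNC5B, a receptor of netrin-1 (OE-UNC5B). According to the methods, UNC5B was delivered by a lentivirus in which the CMV promoter drives a FLAG-tagged UNC5B, together with mCherry and puromycin resistance, and infected cells were selected with puromycin. The sources do not say whether a library came from a pool or from a clone of infected cells, and with 1 library per group no difference below has a replicate check.

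S100 proteins are small calcium sensors with EF-hand motifs that mostly work as dimers, and calcium binding opens a surface with which they hold partner proteins. Annexins bind acidic phospholipids of membranes when calcium rises, and several of them dock S100 dimers through their N-terminal tail: S100A10 pairs with ANXA2, and S100A11 with ANXA1 and ANXA2. S100A8 and S100A9 together form calprotectin, an abundant cytosolic protein of neutrophils and monocytes that appears as myeloid cells mature. ANXA1 is a glucocorticoid-induced anti-inflammatory protein, ANXA5 is the phosphatidylserine binder used to stain apoptotic cells, and S100A4 and S100A6 act on the cytoskeleton and on cell movement.

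The libraries held 13715566 counted reads (Vector) and 15637137 counted reads (labelled OE-UNC5B), and genes with at least 10 reads in all had a median of 269.5 and 316 reads. UNC5B, the targeted gene, had 0 reads in both libraries, so overexpression cannot be seen here, and the library is named below only by its label. Mitochondrially encoded genes took 6.78% of reads in Vector and 5.66% in the OE-UNC5B-labelled library. All 12 myeloid identity markers had at least 10 reads, 0 were higher and 2 (LYZ and MPO) lower by 2-fold, with CD33 at 1775 and 2299 reads, FLT3 at 4067 and 6395 reads and SPI1 at 3219 and 3228 reads.

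All 6 S100 genes lie on chromosome 1 of GRCh38 as the table gives them, S100A10 from 151982915 to 151994390, S100A11 from 152032506 to 152047907, S100A9 from 153357854 to 153361027, S100A8 from 153390032 to 153391188, S100A6 from 153534599 to 153536244 and S100A4 from 153543613 to 153550136. Of these, S100A9 is on the plus strand and the others are on the minus strand. The annexins are dispersed, with ANXA1 on chromosome 9 from 73151757 to 73170393, ANXA2 on chromosome 15 from 60347134 to 60402883, ANXA5 on chromosome 4 from 121667955 to 121697113 and ANXA6 on chromosome 5 from 151100712 to 151157882. In GENCODE 44, the main transcript of every one of the 6 S100 genes has 3 exons and between 408 and 671 nt. The main transcripts of ANXA1, ANXA2 and ANXA5 have 13 exons and between 1401 and 1638 nt, and that of ANXA6, which carries a duplicated annexin core, has 26 exons and 2889 nt.

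The bases just before the start sites differ in whether they hold TATAAA and in their CpG content, and 7 of the 10 are printed to show this. Each line gives, 5′ to 3′, 120 bases up to the base before the RefSeq start site (GRCh38.p14, strand of the gene), and capitals mark TATAAA.
S100A8 (chr1:153391074-153391193, minus strand): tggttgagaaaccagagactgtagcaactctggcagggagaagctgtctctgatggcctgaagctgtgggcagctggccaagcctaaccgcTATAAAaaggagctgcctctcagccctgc
S100A9 (chr1:153357734-153357853, plus strand): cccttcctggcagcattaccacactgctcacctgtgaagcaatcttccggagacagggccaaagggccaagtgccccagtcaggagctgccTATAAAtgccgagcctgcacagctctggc
S100A4 (chr1:153545807-153545926, minus strand): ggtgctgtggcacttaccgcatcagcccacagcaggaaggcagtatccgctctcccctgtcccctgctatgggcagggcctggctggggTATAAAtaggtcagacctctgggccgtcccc
ANXA1 (chr9:73151745-73151864, plus strand): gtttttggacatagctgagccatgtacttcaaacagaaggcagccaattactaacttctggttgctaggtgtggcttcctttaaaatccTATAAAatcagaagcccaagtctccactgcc
ANXA2 (chr15:60397987-60398106, minus strand): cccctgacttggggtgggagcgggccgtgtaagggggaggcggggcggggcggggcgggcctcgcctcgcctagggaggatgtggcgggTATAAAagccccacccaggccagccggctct
S100A11 (chr1:152037005-152037124, minus strand): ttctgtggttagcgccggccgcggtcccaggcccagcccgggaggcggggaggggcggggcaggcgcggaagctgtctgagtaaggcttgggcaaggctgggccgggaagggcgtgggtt
ANXA5 (chr4:121696981-121697100, minus strand): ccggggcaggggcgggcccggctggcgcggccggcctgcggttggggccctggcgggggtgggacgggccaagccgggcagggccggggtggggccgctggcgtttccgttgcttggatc

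TATAAA or its reverse began between 35 and 24 bases before the start in 5 of the 10 genes, S100A4, S100A8, S100A9, ANXA1 and ANXA2, against 2.67% of the 35116 promoter windows of the table. Each gene counts here once, at the start nearest that of its main transcript, whereas the windows include alternative starts. The 10 genes have 13 windows, and the further ones, of S100A8 and ANXA6, lacked this match. Over the 250 bases before the start, the count of CpG dinucleotides was 0 in ANXA1, 2 in S100A8, 4 in S100A9 and 7 in S100A4, below the median of 11 over all windows. It was between 15 (S100A11) and 31 (ANXA5) in the other 6 genes. GGGCGG or its reverse, the GC box, was found in 7 of the 10 genes and in 42.6% of all windows. TTGCNNAA or its reverse, a C/EBP motif, was found in S100A11 and ANXA1 and in 9.05% of all windows. CCAAT or its reverse was found in ANXA1 and ANXA6 (32% of windows), TGANTCA, the AP-1 motif, in ANXA2 (6.57% of windows), and AGGAAGT or its reverse, a PU.1 motif, in 0 of the 10 (7.01% of windows). These are matches of letters on either strand and not measured binding.

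The levels of the 10 genes spanned a wide range. Per length of the main transcript, S100A4 was the most abundant in both libraries, at 173 CPM per kilobase in Vector (CPM, reads scaled to library size) and 181 in the OE-UNC5B-labelled library. S100A11 followed with 109 and 114, and S100A10 with 60.5 and 52.2. Below them in Vector came ANXA2 (49.4), S100A6 (42.0), ANXA5 (31.5) and ANXA1 (27.8), and far below S100A9 (2.72), ANXA6 (1.87) and S100A8 (1.64). In that order, the 95% intervals of neighbours overlapped for ANXA2 and S100A6, for ANXA5 and ANXA1, for S100A9 and ANXA6 and for ANXA6 and S100A8.

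In the OE-UNC5B-labelled library, ANXA5 (38.2) stood above S100A6 (26.5) and ANXA2 (24.4), whose intervals overlapped, and ANXA1 (7.54) stood alone between these and the 3 lowest genes. ANXA6 was at 0.588 and S100A9 at 0.220, with overlapping intervals, and S100A8 had 0 reads. These intervals cover counting error only. The calprotectin genes, which mature monocytes and neutrophils hold in abundance, were thus, with ANXA6, at the bottom of the order in both libraries.

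**Figure D1:**
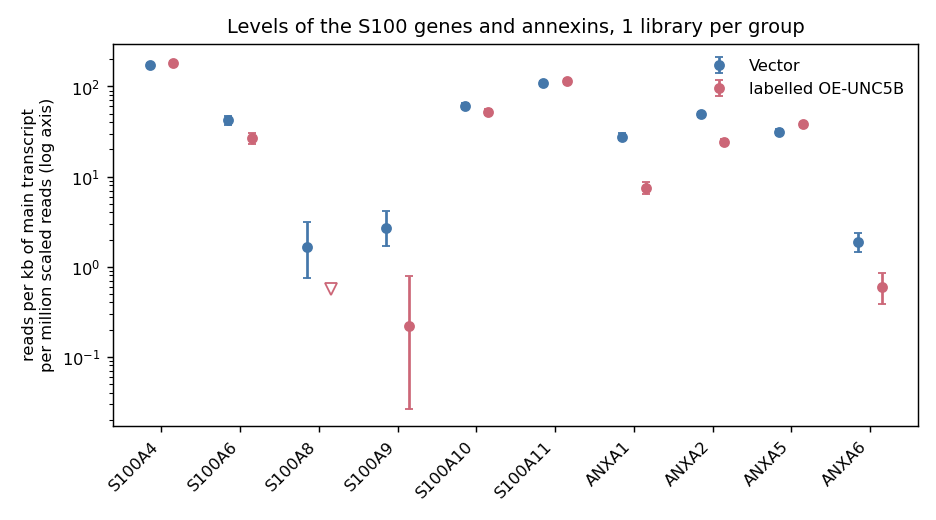
Levels of the 10 genes in the Vector library and the OE-UNC5B-labelled library, as CPM per kilobase of the main transcript on a log axis, with 95% Poisson intervals of the reads. The open triangle is the upper limit for S100A8, which had 0 reads; S100A4 and S100A11 are highest in both libraries, and ANXA1 shows the widest gap among the genes with over 100 reads in each library.

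The order depends on which length is used. The deposited FPKM values divide by a gene length that counts and FPKM together give as 13548 bases for ANXA2 and 680 bases for S100A11, against main transcripts of 1554 nt and 563 nt. By deposited FPKM, S100A11 came first (88.6 in Vector and 96.1 in the OE-UNC5B-labelled library) and S100A4 second (43.6 and 47.0), while ANXA2 dropped below ANXA5 and ANXA1 in Vector, to 5.57 FPKM. S100A11 ranked 299th by FPKM of the 50868 genes in Vector and 249th in the OE-UNC5B-labelled library. This bears on the comparison between genes and not on that between the libraries.

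Between the libraries, 4 of the 9 genes with at least 10 reads were lower by at least 2-fold in the OE-UNC5B-labelled library, namely S100A9, ANXA1, ANXA6 and ANXA2, and 0 were higher by it. Over all 15384 genes with at least 10 reads, 4.72% were lower and 5.27% were higher by at least 2-fold, 9.99% in either direction. The tenth gene, S100A8, had 9 reads in all and was left out by this minimum. S100A9, with 21 reads in Vector and 2 in the OE-UNC5B-labelled library, passed it through Vector alone. With at least 50 reads, 3 of 8 genes were lower by 2-fold, without S100A9. The median log2 fold change over the 9 genes was -0.66, against -0.01 over all genes compared, and over all 10, with S100A8 at its bound, it was -0.84. From deposited FPKM it was -0.39 with 0.1 added and -0.35 with 1 added, with 2 genes lower by 2-fold, and with at least 50 reads it was -0.44. With library totals or DESeq2 size factors in place of TMM scaling, 3 of the 9 were lower by 2-fold, without ANXA2. In these bulk libraries, fewer cells that express a gene and less RNA per cell cannot be told apart.

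The 95% counting interval lay below no change for 6 of the 9 genes and above it for 1, against 26.3% and 25.1% of all genes compared. An interval of this kind compares the 2 libraries, not the conditions, and leaves out variation between cultures. It narrows with more reads, and the shares over all genes are not matched for depth. Among the 8180 genes with at least 500 reads, 1.39% were lower by 2-fold. That class holds 6 of the 10 genes, of which ANXA1 and ANXA2 were lower by 2-fold and S100A4, S100A10, S100A11 and ANXA5 were not. Together, the 6 S100 genes held 2848 reads in Vector and 3237 in the OE-UNC5B-labelled library, a log2 fold change of -0.05 (95% counting interval -0.13 to 0.02). The 4 annexins held 2329 and 1791 reads, a log2 fold change of -0.62 (-0.71 to -0.53).

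**Figure D2:**
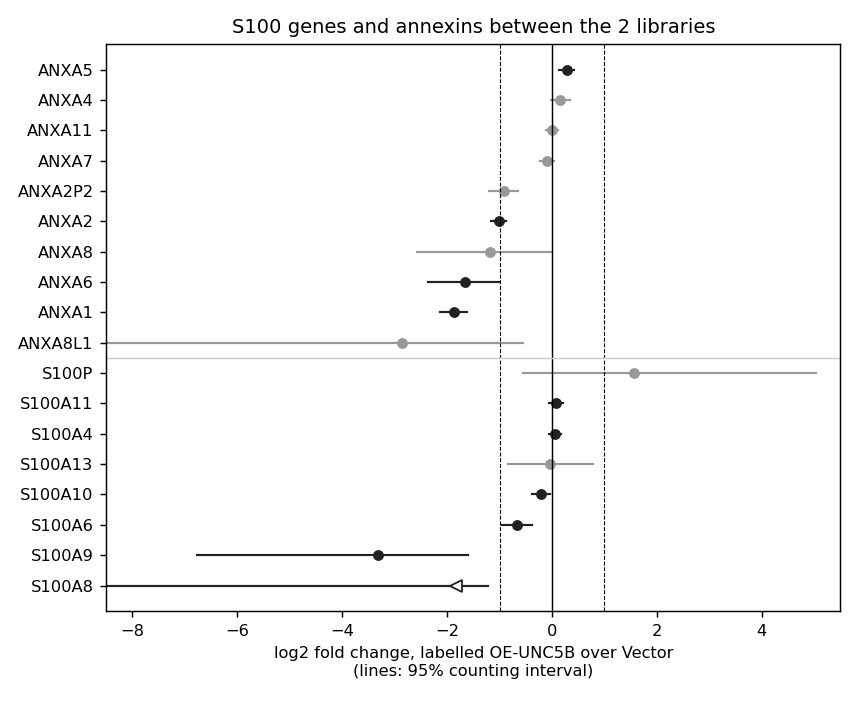
Log2 fold change of each S100 gene and annexin (OE-UNC5B-labelled library over Vector), with the 95% counting interval as a line; black marks the genes described here and grey other family members with at least 10 reads, and dashed lines mark 2-fold. The open triangle sets S100A8, with 0 reads in the OE-UNC5B-labelled library, at its bound against 3 reads; ANXA1, ANXA6, S100A9 and S100A8 have intervals wholly beyond 2-fold lower.

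The calprotectin genes had few reads in Vector and almost none in the OE-UNC5B-labelled library. S100A9 had 21 reads in Vector and 2 in the OE-UNC5B-labelled library. With no reads added its value was 12.4-fold lower, with a 95% counting interval of 3.02-fold to 109-fold. The size depends on the value added to these few reads, and its log2 fold change was -3.32 with 0.5 reads added, -2.69 with 2 reads added and -1.58 from FPKM with 1 added. S100A8, its partner subunit, had 9 reads in Vector and 0 in the OE-UNC5B-labelled library. This is at least 3.54-fold lower against a floor of 3 reads, a bound that leaves out counting error, and the upper end of its counting interval was -1.22 on the log2 scale. The values of both subunits rest on 30 reads together in Vector. S100A12, the third S100 gene of this class in granulocytes and monocytes, had 0 reads in both libraries, which allows up to 0.222 CPM in Vector and 0.189 CPM in the OE-UNC5B-labelled library.

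Of the 10 transcription factors listed for S100A8 and S100A9, 9 had at least 10 reads, 1 was higher and 1 was lower by 2-fold. Over all genes compared, 5.27% were higher and 4.72% lower. CEBPE, a factor of late granulocyte maturation, had 48 reads in Vector and 8 in the OE-UNC5B-labelled library, a log2 fold change of -2.74 (-4.11 to -1.73). CEBPB, which acts in monocytes and macrophages, had 187 and 557 reads, a log2 fold change of 1.34 (1.10 to 1.58). The 3 factors with the highest FPKM differed by less than 2-fold. CEBPA had 7227 and 7626 reads, SPI1 (PU.1) 3219 and 3228 reads and CEBPD 1195 and 1077 reads, with log2 fold changes of -0.16, -0.23 and -0.39.

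Monocyte and granulocyte markers were examined beside the calprotectin genes. The counting interval lay below no change for 6 of 10 monocyte markers with at least 10 reads and for 5 of 6 granulocyte markers (26.3% of all genes compared), and above it for 2 and 0 (25.1%). For the 12 myeloid identity markers, which share LYZ and MPO with these lists, it lay below for 3 and above for 7. Such intervals narrow with more reads, and the shares over all genes are not matched for depth. CTSG, with 3446 and 3767 reads, counted as below at a log2 fold change of -0.11. Of 15 monocyte markers, 10 had at least 10 reads. Lower by 2-fold were 3 (LYZ, MNDA and CLEC7A) and higher 0, against 4.72% and 5.27% of all genes compared. The summed level of the 15 was 4391 CPM in Vector and 2002 CPM in the OE-UNC5B-labelled library. Most of it was LYZ, the lysozyme gene, with 51742 and 23700 reads. In the other direction, CSTA, a cysteine protease inhibitor, had 1700 and 2538 reads, a log2 fold change of 0.34 (0.25 to 0.43), and the interval of CTSS also lay above no change. The defining markers FCN1, CD300E and FCGR3A had 0 reads in both libraries, and CD14 had 4 and 5 reads. Of 12 granulocyte markers, 6 had at least 10 reads and 2 were lower by 2-fold, MPO with 3363 and 1553 reads and PRTN3 with 33387 and 13614 reads. Their summed level was 5093 and 2644 CPM, and CEACAM8, LTF, LCN2, MMP8 and FCGR3B, markers of late granulocytes, had 0 reads in both libraries. The 5 granulocyte markers below no change (MPO, PRTN3, ELANE, AZU1 and CTSG) encode proteins of the primary granules, which form early, in promyelocytes. The part of these markers in the values of S100A8 and S100A9 was not tested.

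The 4 broadly expressed S100 genes differed less. S100A4, a binder of non-muscle myosin, had 1198 reads in Vector and 1473 in the OE-UNC5B-labelled library, a log2 fold change of 0.06 (95% counting interval -0.05 to 0.17). S100A11 had 826 and 1022 reads, a log2 fold change of 0.07 (-0.06 to 0.20). For both genes the interval holds no change.

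S100A10, which lacks calcium binding of its own and stays in the open form, had 548 and 557 reads, a log2 fold change of -0.21 (-0.39 to -0.04). S100A6, calcyclin, had 246 and 183 reads, a log2 fold change of -0.66 (-0.95 to -0.38). S100A6 and S100A4 lie 7.37 kb apart with S100A5, at 0 reads in both libraries, between them, and the ratio of S100A4 to S100A6 reads per main transcript length was 4.12 in Vector and 6.81 in the OE-UNC5B-labelled library, a log2 difference of 0.72 (0.42 to 1.03) that needs no scaling. S100A3, which overlaps S100A4 on the same strand, had 0 reads in both libraries, as had the genes that overlap S100A6, S100A11 and ANXA2 on the opposite strand. Together these 4 genes held 2818 and 3235 reads, a log2 fold change of -0.04 (-0.11 to 0.04).

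Among the 4 annexins, the lowest log2 fold change was that of ANXA1. Its reads numbered 525 in Vector and 168 in the OE-UNC5B-labelled library, or 38.9 and 10.6 CPM, a log2 fold change of -1.88 (95% counting interval -2.14 to -1.63). Of all genes compared, 1.33% had a value as low or lower. ANXA6, which acts in membrane traffic and cholesterol handling, had 73 and 27 reads, a log2 fold change of -1.65 (-2.37 to -1.02). Its level was low in both libraries, at 5.41 and 1.70 CPM.

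ANXA2, a membrane and actin linker that also holds plasminogen at the cell surface, had 1035 reads in Vector and 602 in the OE-UNC5B-labelled library. Its log2 fold change was -1.02 (-1.17 to -0.87), so that its interval spans the 2-fold line. It was -0.97 with library totals and -0.98 with DESeq2 size factors. The value is uncertain for a further reason: 28.0% of the 75-base sequences of its main transcript also occur in the pseudogenes ANXA2P2 and ANXA2P1. ANXA2P2 had 285 and 178 reads, a log2 fold change of -0.91, and the reads of ANXA2 and its pseudogenes together (1324 and 781) had a log2 fold change with an interval of -1.13 to -0.87. For the other 9 genes this share was 0%.

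ANXA5 differed in the opposite direction. It had 696 reads in Vector and 994 in the OE-UNC5B-labelled library, a log2 fold change of 0.28 (0.14 to 0.42), which is 1.21-fold. It was the 1 gene of the 9 whose interval lay above no change. The ratio of ANXA5 to ANXA1 reads per main transcript length was 1.13 in Vector and 5.06 in the OE-UNC5B-labelled library, a log2 difference of 2.16 (1.87 to 2.45).

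The partners of known S100 and annexin complexes differed in unequal measure between the libraries. Per length of the main transcript, there were 1.23 S100A10 reads for each ANXA2 read in Vector and 2.14 in the OE-UNC5B-labelled library, and the log2 difference of the ratio was 0.80 (95% counting interval 0.58 to 1.03). For S100A11 and ANXA1 the ratio was 3.92 and 15.1, a log2 difference of 1.95 (1.66 to 2.24). For S100A11 and ANXA2 it was 2.20 and 4.69, a log2 difference of 1.09 (0.89 to 1.29), and for S100A6 and ANXA2 it was 0.851 and 1.09, a log2 difference of 0.35 (0.03 to 0.67). In these 4 pairs, taken from 9 ratios computed with the values known, the S100 partner stood higher relative to its annexin in the OE-UNC5B-labelled library. Each pair has ANXA1 or ANXA2 as its annexin, and both were lower by 2-fold in that library. The shared direction thus follows from the choice of pairs. The ratios are of RNA and say nothing of the amount of complex.

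The other S100 genes held 31 and 40 reads in all, whereas the other annexins held more reads than the 4 described above. Of 14 other S100 genes, 10 had 0 reads in both libraries and 2 had at least 10 reads over both. S100A13 had 26 and 30 reads, and S100P, the 1 gene past 2-fold higher, 2 and 8 reads, a ratio whose log2 interval ran from -0.56 to 5.04. Of 9 other annexins, 5 had at least 10 reads, 2 were lower and 0 were higher by 2-fold (4.72% and 5.27% of all genes). ANXA11, which links RNA granules to lysosomes, had 1104 and 1300 reads, ANXA7 (synexin, a membrane fusion protein) 817 and 899 reads and ANXA4, a membrane aggregating protein, 448 and 590 reads. Their log2 fold changes were 0.00, -0.10 and 0.16, and the interval held no change for each.

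The 2 lower genes were ANXA8, with 18 and 9 reads, and its near-identical copy ANXA8L1, with 9 and 1 reads. The values of both are uncertain, because 75.9% and 79.8% of the 75-base sequences of their main transcripts occur in other genes. Together they held 27 and 10 reads, a log2 fold change of -1.62 (-2.88 to -0.58). The 9 other annexins together held 2401 and 2799 reads, a log2 fold change of -0.02 (-0.09 to 0.06).

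Along chromosome 1, the table lists 83 genes between the first and the last S100 gene (chr1:151982915-153632039), of which 71 had 0 reads in both libraries. This stretch holds the epidermal differentiation complex, whose genes serve the skin barrier. Between S100A11 and S100A9 lie 60 genes, 57 of them at 0 reads in both libraries. Of the 67 genes outside the S100 genes listed here, which include S100A7L2 and the pseudogene S100A7P1, only TCHH, with 8 and 10 reads, had at least 10 reads. S100A8 and S100A9 lie 29.0 kb apart, and S100A6 lies 143 kb from S100A8. Within these distances the level per main transcript length in Vector went from 1.64 (S100A8) to 42.0 (S100A6) and 173 CPM per kilobase (S100A4).

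**Figure D3:**
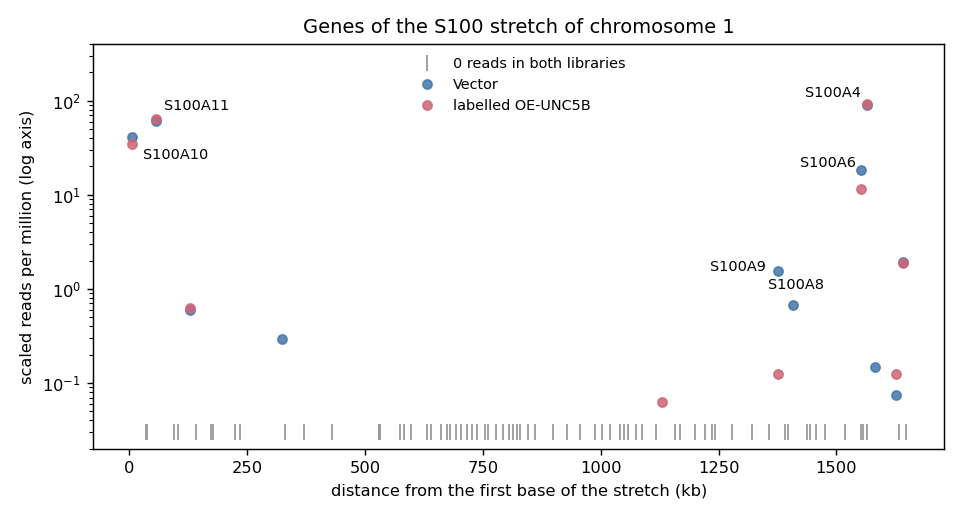
CPM (log axis) of the genes in the S100 stretch of chromosome 1 against the distance of the gene's middle from the first base of the stretch, for the Vector library and the OE-UNC5B-labelled library. Grey ticks are the 71 genes with 0 reads in both libraries, and a gene with 0 reads in 1 library has a point for the other library only; S100A10 and S100A11 at one end and S100A6 and S100A4 at the other carry most of the reads.

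The receptors and partners of these proteins were examined as lists. For these and the lists below, the shares over all genes compared were 4.72% lower and 5.27% higher by 2-fold. Of 13 receptors, 9 had at least 10 reads, 1 was higher and 0 were lower by 2-fold, with a median log2 fold change of -0.24. LY96 (MD-2, which TLR4 needs to bind its ligand) had 9 and 36 reads, a log2 fold change of 1.71 (0.68 to 3.00). BSG, a receptor of S100A9, was the most abundant with 6713 and 5267 reads (-0.59), followed by CD33, also bound by S100A9, with 1775 and 2299 reads (0.14), and NPTN, a receptor of S100A8, with 575 and 563 reads (-0.27). TLR4 had 353 and 307 reads and AGER, the RAGE receptor, 97 and 146 reads, both named after their values were seen.

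Genes of the plasminogen system, which ANXA2 and S100A10 serve at the cell surface, were examined next. SERPINB2, an inhibitor of plasminogen activators, had 17 reads in Vector and 3 in the OE-UNC5B-labelled library, with an interval of -5.15 to -0.95 on the log2 scale. ENO1, glycolytic enolase that also binds plasminogen, had 41063 and 31342 reads, a log2 fold change of -0.63. PLAU, urokinase, had 1583 and 1667 reads and its receptor PLAUR 991 and 965 reads, with log2 fold changes of -0.16 and -0.28.

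Of 17 intracellular partners, 15 had at least 10 reads, 2 were higher and 1 was lower by 2-fold, with a median of 0.12. AHNAK, a giant scaffold that docks on the ANXA2 and S100A10 complex, had 6508 reads in Vector and 18585 in the OE-UNC5B-labelled library, a log2 fold change of 1.28 (1.24 to 1.32). After subtraction of the median of its gene length bin, that of the longest genes, it was 1.03. MYOF, myoferlin of membrane repair, had 29 and 114 reads, a log2 fold change of 1.72 (1.14 to 2.38). MYH10 had 13 and 7 reads, with an interval that held no change (-2.70 to 0.30). MYH9, the myosin bound by S100A4, had 13048 and 19391 reads (0.33). RAC2 and NCF4 belong to the phagocyte NADPH oxidase that calprotectin activates, and had 3282 and 4213 reads (0.12) and 1288 and 1617 reads (0.09).

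Of 20 other calcium sensors and membrane repair genes, all had at least 10 reads, 1 was higher and 0 were lower by 2-fold, with a median of -0.10. CALM3, 1 of 3 genes for calmodulin, had 1747 and 4133 reads, a log2 fold change of 1.01 (0.92 to 1.09). After subtraction of the median of its gene length bin it was 0.998, short of 2-fold. The most abundant, the actin bundler LCP1, had 22550 and 27583 reads (0.05), CHMP4B of the ESCRT machinery 1335 and 1175 reads (-0.42) and the EF-hand protein EFHD2 2227 and 1732 reads (-0.60). Of the glucocorticoid receptor and 8 of its targets, listed because glucocorticoids induce ANXA1, 8 genes had at least 10 reads, 0 were higher and 1 was lower by 2-fold. SGK1 had 83 and 31 reads, a log2 fold change of -1.64 (-2.30 to -1.05). ZFP36, FKBP5 and KLF9 had log2 fold changes of 0.10, 0.08 and 0.68. NR3C1, the receptor itself, and the targets TSC22D3 and DUSP1 had log2 fold changes of 0.97, 0.85 and -0.82, and are named after their values were seen. The genes of this list thus went both ways.

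**Figure D4:**
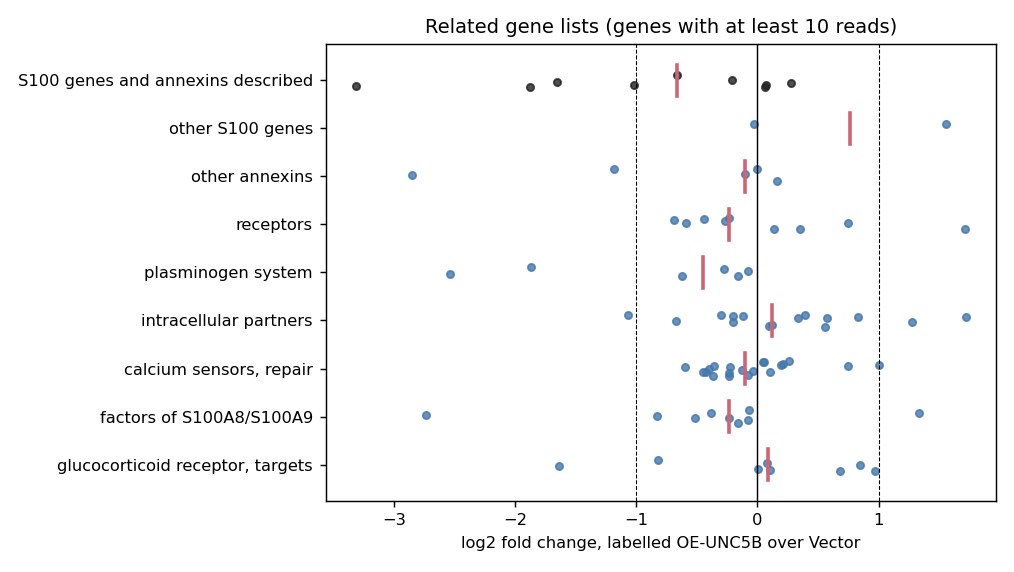
Log2 fold change (OE-UNC5B-labelled library over Vector) of the genes with at least 10 reads in the S100 and annexin set and in 8 related lists; each point is a gene, the red bar is the list median and dashed lines mark 2-fold. The S100 and annexin set has its median at -0.66 with 4 of 9 genes beyond 2-fold lower, and the medians of the other lists lie between -0.45 and 0.76, the highest resting on 2 genes.

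ANXA1, ANXA2 and S100A6 are abundant in fibroblasts and epithelia, so markers of other cells were examined beside them. Of 12 fibroblast markers, 5 had at least 10 reads. Lower by 2-fold were 4 of these and higher 0, against 4.72% and 5.27% of all genes compared. COL1A2, among the 4, had 8 and 2 reads and an interval that held no change (-5.51 to 0.09). The summed level of the 12 markers was 16.9 CPM in Vector and 6.54 CPM in the OE-UNC5B-labelled library, or 228 and 104 reads. COL3A1 held 108 and 6 of these reads, and ACTA2, the list member with the highest FPKM, held 61 and 81. DCN, FBLN1, POSTN and PDGFRA had 0 reads in both libraries. Of 8 epithelial or HEK293 markers, 7 had 0 reads in both libraries and KRT18 had 5 and 2 reads. Of 10 endothelial markers, 6 had 0 reads in both (CDH5, KDR, TEK, TIE1, CLDN5 and ROBO4), and PECAM1, which myeloid cells also express, held most of the reads with 1626 and 1471. Of 8 erythroid markers 7 had 0 reads in both libraries, and of 8 lymphoid markers 3 had at least 10 reads and 1 was higher by 2-fold, with 412 and 431 reads over the list. The part of the fibroblast markers in the values of the annexins was not tested.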

How the data were processed

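For 2 libraries, 1 per group, the deposited values are unnormalized read counts and FPKM per gene. The submitters' processing notes name bcl2fastq 2.19, HISAT2 2.0.4, StringTie 1.3.0 and GRCh38, and the annotation release, the use of strand and the counting tool are not given in the sources used here. Counts divided by deposited FPKM gave the same gene length in both libraries (ratio 1.000 to 1.001), so FPKM was scaled to counted reads.

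TMM factors (edgeR 4.0.16, R 4.3.3) of 0.984 (Vector) and 1.02 (OE-UNC5B) scaled the libraries. Log2 fold changes had 0.5 reads added, and a fold of 2 was the threshold for genes with at least 10 reads in all. Intervals are 95% Clopper-Pearson intervals of the share of reads, exact conditional intervals for ratios of genes, or Poisson intervals for levels (scipy 1.17.1), and cover counting error only. With 1 library per group edgeR's quasi-likelihood test could not be fitted, and no p-value is given. Main transcripts came from GENCODE 44 and promoters from RefSeq, in which all 10 genes were found; the 75-base sequences were searched in all GENCODE 44 transcripts. The procedure was tested on counts simulated with known folds and counting error only. Such counts hold no variation between cultures and cannot check the differences reported here.

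The members and lists were chosen with earlier results of these data known. Named genes are the 10 members, other S100 genes and annexins with at least 10 reads, and in each pathway list those past 2-fold and the 3 with the highest mean FPKM. Genes of the cell type marker lists are named outside this rule, with values seen. Of these, 1 gene is not reported here, nor are the counts of its list. Alternatives were other scalings, added reads, minimums, folds, FPKM, and subtraction of the median of 20 gene length bins.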

Additional observations from a re-analysis of the deposited data

How the results depend on the processing

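Of the S100 genes and annexins, 4 were lower by 2-fold. This number was 2 with deposited FPKM (0.1 or 1 added, at least 1 FPKM in a library), where ANXA6 was under the minimum and ANXA2 fell short of 2-fold (-0.95 with 0.1 and -0.77 with 1 FPKM added), and 1 with a fold of 4. It stayed between 3 and 5 with DESeq2 size factors, library totals, no minimum, 2 reads added, at least 50 reads, gene length bins and a fold of 1.5, and 0 were higher under any of these settings. The median over the genes was -0.35 with 1 FPKM added. Each of the 9 genes with at least 10 reads kept its sign under the alternatives that gave it a value. These alternatives reuse the same 2 libraries, and the intervals of S100A4 and S100A11 hold no change. Over all genes, 811 were higher and 726 lower by 2-fold. These numbers were 3030 and 3068 with no minimum, 361 and 296 with at least 50 reads, 392 and 281 with 0.1 FPKM added, 165 and 130 with 1 FPKM added, 1991 and 1918 with a fold of 1.5, and 158 and 168 with a fold of 4. The changed minimum and the changed fold move these numbers by construction. The FPKM settings change the measure, the added value and the minimum together (11564 genes against 15384), and their parts were not separated. The median of all genes compared moved by less than 0.1 on the log2 scale between the scalings, from -0.01 to 0.04. Over the 20 gene length bins, the median log2 fold change ran from -0.15 to 0.25, the highest in the longest genes.

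No paired analysis was possible because each group had 1 library, and for the same reason no replicate was left out. Depth limits S100A8 and S100A9, with 30 reads together in Vector and 2 in the OE-UNC5B-labelled library, and S100P, ANXA8 and ANXA8L1, with at most 27 reads each over both libraries.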
